A study of Mus musculus with 9 samples.

Results

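The S100 calcium-binding proteins are a family of small EF-hand proteins, and 10 of their genes were followed here in mouse liver: S100a1, S100a4, S100a6, S100a8, S100a9, S100a10, S100a11, S100a13, S100a14 and S100a16. They were taken by gene symbol from a table of 30519 transcripts with 1 transcript per Ensembl gene identifier, and the family was selected on its KO and WT values in this same table, with the difference between the genotypes already known. The KO and WT values of these 10 genes are therefore given as a description, with no p for any of them. All 10 were found, and 9 passed the filter, a mean value of 1 or more across all 9 libraries. S100a14 did not pass.

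Livers of 6-week-old mice were profiled by polyA RNA-seq in 4 animals without the hepatocyte microRNA miR-122 (KO) and in 5 littermates with floxed alleles (WT). The KO group held 1 female (replicate 1) and 3 males (replicates 2 to 4), and the WT group held 3 females (replicates 1 to 3) and 2 males (replicates 4 and 5). The labels name no Cre driver and do not say how the allele was deleted, so which cells lost the microRNA cannot be stated. The study asked which transcripts change in the liver when miR-122 is missing, and miR-122 itself was not analysed here. Values are the authors' normalised abundances, which behave as amounts per transcript length, so levels of different genes can be set side by side. The sources used here do not give the read depth of the libraries, and their values, in units of k (kilo), added up to between 711 and 869 for KO livers and between 873 and 1167 for WT livers. Albumin, the main secreted protein of hepatocytes, lay between 37940 and 54092 in KO and between 29487 and 90015 in WT livers. For WT replicate 3 the label says female and the column name says male. Its Ddx3y value was 0.0422, against at least 13.2 in every library labelled male, and the label was kept. Libraries correlated at Pearson r of 0.913 to 0.981, and no pair was identical.

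S100 proteins work mostly as dimers. Calcium binding opens a surface on the dimer that grips partner proteins such as annexins, myosin and p53, and several members are also released from cells and bind receptors such as RAGE (Ager) and TLR4. S100a8 and S100a9 together form calprotectin, a protein of neutrophils and monocytes, while S100a4, S100a6 and S100a11 are known from fibroblasts, bile duct cells and migrating or proliferating cells.

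Promoters are shown for the genes whose values the results turn on, because pairs of neighbours in the family can be read from them. The sequences come from the RefSeq table of build GRCm38.p6, which held 9 promoters of 8 members. Each runs from 250 bases before to 50 bases after the start, 5′ to 3′ on the gene's strand. S100a11 had the largest fold between the genotypes, and S100a8 and S100a9 moved together from library to library. Capitals mark the letters TGANTCA (the AP-1 motif), TATAAA (the TATA box) and GGGCGG (the GC box), searched on both strands.
S100a11, chr3:93520246-93520545, plus strand: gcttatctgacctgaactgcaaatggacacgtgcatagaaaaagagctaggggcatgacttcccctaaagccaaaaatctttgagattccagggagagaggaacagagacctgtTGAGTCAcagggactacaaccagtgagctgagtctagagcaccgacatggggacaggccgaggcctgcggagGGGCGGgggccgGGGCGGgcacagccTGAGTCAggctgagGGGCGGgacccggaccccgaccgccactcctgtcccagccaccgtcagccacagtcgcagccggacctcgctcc
S100a8, chr3:90668821-90669120, plus strand: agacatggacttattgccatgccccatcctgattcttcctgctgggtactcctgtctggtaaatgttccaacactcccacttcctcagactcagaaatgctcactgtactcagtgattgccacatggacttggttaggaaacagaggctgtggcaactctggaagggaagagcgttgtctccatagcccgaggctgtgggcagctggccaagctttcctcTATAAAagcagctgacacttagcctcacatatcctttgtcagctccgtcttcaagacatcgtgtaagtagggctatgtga
S100a9, chr3:90695672-90695971, minus strand: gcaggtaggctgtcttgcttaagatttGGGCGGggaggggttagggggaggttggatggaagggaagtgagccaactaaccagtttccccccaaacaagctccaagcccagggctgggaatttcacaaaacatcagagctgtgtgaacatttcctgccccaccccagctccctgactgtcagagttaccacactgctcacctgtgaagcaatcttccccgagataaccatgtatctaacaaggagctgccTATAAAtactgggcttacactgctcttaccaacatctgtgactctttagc
The S100a11 window held 2 AP-1 motifs, whose first bases lay at -136 and -38 from the start, and 3 GC boxes at -64, -52 and -24. S100a8 had its TATA box at -30, and S100a9 had one at 0, on the annotated start itself, with a GC box at -223. Of all 32851 promoters in the table, 7.81% held the AP-1 letters, 13.6% the TATA letters and 35.7% the GC box letters. Among the 9 member promoters, 2 held AP-1 letters, 3 the TATA box and 3 the GC box. The other promoter with AP-1 letters was the second listed for S100a16, at -192. A match describes the letters and is not evidence of a bound site.

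S100a1 and S100a13 lie head to head and share promoter sequence. Their RefSeq windows overlap by 204 bases, and the capitals below mark the 104 bases between the start of S100a1 and that of S100a13. None of the 3 motifs occurs in the S100a1 window.
S100a1, chr3:90514281-90514580, minus strand: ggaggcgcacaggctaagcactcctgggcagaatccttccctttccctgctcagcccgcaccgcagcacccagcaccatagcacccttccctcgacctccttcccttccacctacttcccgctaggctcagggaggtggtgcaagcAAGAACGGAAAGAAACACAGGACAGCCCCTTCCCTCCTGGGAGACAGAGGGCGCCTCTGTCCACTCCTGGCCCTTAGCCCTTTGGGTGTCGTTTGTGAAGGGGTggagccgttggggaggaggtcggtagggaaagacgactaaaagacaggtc
All 10 genes are on chromosome 3 in GENCODE M21 (GRCm38). S100a1, S100a13, S100a14, S100a16, S100a4, S100a6, S100a8 and S100a9 lie in that order within 184.7 kb (chr3:90511034-90695721). S100a11 and S100a10 stand 2.83 Mb further on, within 44.2 kb (chr3:93520488-93564643). S100a1 and S100a9 are on the minus strand and the others on the plus strand. S100a4 overlaps the gene Gm42674 on its own strand, so reads of the 2 genes may have been shared between them.

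**Figure D1:**
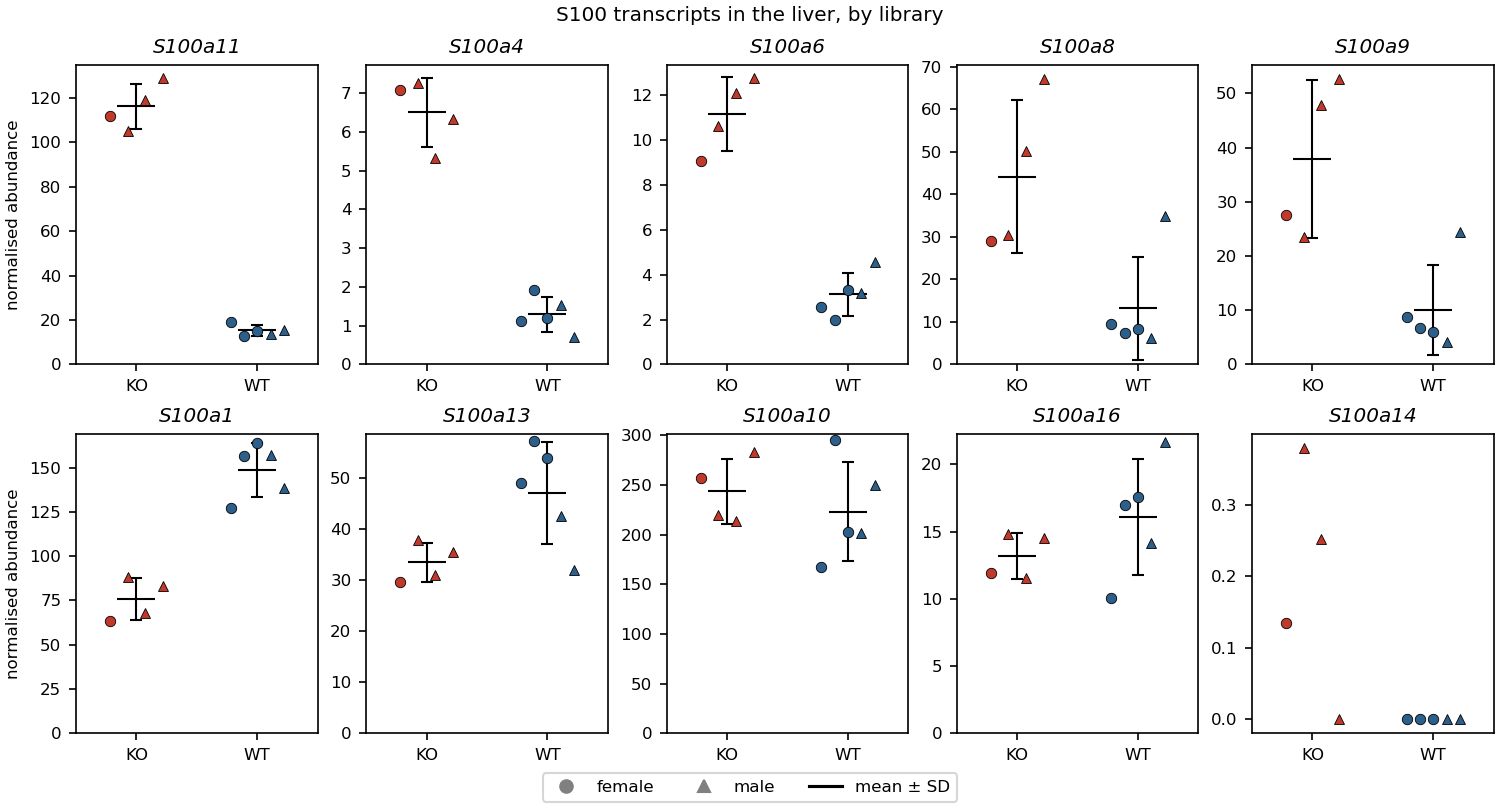
Normalised abundance of the 10 S100 transcripts in each library, with KO left and WT right in every panel; circles are females, triangles males, and the bar is the mean ± SD (none is drawn for S100a14). S100a11, S100a4 and S100a6 are higher in all 4 KO than in all 5 WT livers, S100a1 is lower in all 4, and for S100a8 and S100a9 the highest WT liver, replicate 5, lies among the KO livers.

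In the fit over all transcripts, which takes in 9 of the members, 5 were called higher in KO livers (S100a11, S100a4, S100a6, S100a8 and S100a9), 1 was called lower (S100a1) and 3 were not called (S100a10, S100a13 and S100a16). For any transcript, a call is an adjusted p under 0.05 in limma with Benjamini-Hochberg adjustment over all 10950 transcripts tested. The background is wide, since 35.9% of all transcripts were called, 21.4% higher and 14.5% lower. The KO and WT values did not overlap in 4 of the 9 tested members, beside 31.1% of all transcripts. The median log2 difference of the 9 members was 1.58, beside 0.03 over all transcripts tested. The choice of the family on this contrast, and of members by the filter, goes into all of these figures, so nothing is read from them. In whole liver RNA, fewer cells of a type and less RNA per cell cannot be told apart.

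S100a11, which binds annexins and is also called calgizzarin, had normalised abundances of 112, 105, 119 and 129 in the 4 KO livers, against 19.4, 12.99, 15.1, 13.9 and 15.7 in the 5 WT livers. The lowest KO liver was well above the highest WT liver, and the spread within each genotype was small. The means were 116 ± 10.3 in KO and 15.4 ± 2.45 in WT livers (SD, n = 4 and 5), a 7.55-fold difference. On the scale of log2(value + 1), where low genes show less change than their ratio of means, the difference was 2.85 ± 0.11 (SE). S100a11 made up 19.97% of the summed level of the 10 members in KO and 3.22% in WT livers, and it ranked 2 of 10 in KO and 5 of 10 in WT livers. About 229 reads stood behind it, from the authors' log mean pooled over all 9 libraries, as for the read figures of the other members.

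S100a4, also known as fibroblast-specific protein, binds non-muscle myosin heavy chain (Myh9). Its abundance was 7.08, 7.27, 5.33 and 6.34 in the KO livers, against 1.12, 1.92, 1.19, 1.54 and 0.708 in the WT livers. No WT liver reached the lowest KO liver, with means of 6.50 ± 0.881 in KO and 1.30 ± 0.458 in WT livers (SD, n = 4 and 5), a 5.02-fold difference. The log2 difference was 1.72 ± 0.16 (SE). At about 15.8 reads, a value pooled over both genotypes although its level is lower in WT livers, S100a4 was the thinnest of the 9 members above the filter. With a pseudocount of 0.1 its log2 difference was 2.30.

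S100a6, or calcyclin, binds the ubiquitin ligase adaptor Cacybp and annexins. It stood at 9.07, 10.7, 12.1 and 12.8 in the KO livers, against 2.58, 2.00, 3.31, 3.21 and 4.58 in the WT livers. The groups did not overlap. Means were 11.2 ± 1.65 in KO and 3.14 ± 0.963 in WT livers (SD, n = 4 and 5), a ratio of 3.56 and a log2 difference of 1.58 ± 0.17 (SE), from about 51.3 reads.

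The calprotectin subunits were higher in KO livers as well, but 1 WT animal shared their high level. S100a8 measured 29.0, 30.5, 50.2 and 67.1 in the KO livers, against 9.46, 7.41, 8.25, 6.11 and 34.8 in the WT livers. WT replicate 5 thus lay above KO replicates 1 and 2, and the other 4 WT livers were at 9.46 or less. S100a8 averaged 44.2 ± 18.1 in KO and 13.2 ± 12.1 in WT livers (SD, n = 4 and 5), a ratio of 3.35 and a log2 difference of 1.88 ± 0.46 (SE). Without WT replicate 5 the WT mean was 7.81 ± 1.41 (SD, n = 4) and the ratio 5.66.

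S100a9, the partner subunit, measured 27.5, 23.5, 47.8 and 52.6 in the KO livers, against 8.76, 6.79, 5.97, 4.1995 and 24.5 in the WT livers. Again only WT replicate 5 came up to the KO values, above KO replicate 2. Means were 37.9 ± 14.5 in KO and 10.05 ± 8.25 in WT livers (SD, n = 4 and 5), a ratio of 3.77, or 5.89 with WT replicate 5 left out. The log2 difference was 1.98 ± 0.44 (SE). In males alone (3 KO and 2 WT livers) the log2 differences were 1.59 for S100a8 and 1.80 for S100a9. About 81.0 and 96.8 reads stood behind S100a8 and S100a9.

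The ratio of S100a8 to S100a9 stayed narrow while their level varied. It was 1.168 ± 0.135 in KO and 1.29 ± 0.185 in WT livers (SD, n = 4 and 5), with ranges of 1.05 to 1.30 in KO and 1.08 to 1.46 in WT livers. After each genotype's mean was removed, the log2 values of the 2 genes correlated at r = 0.975 over the 9 libraries, as a description, and at 0.930 over 8 libraries without WT replicate 5. These points share libraries and scaling.

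The summed neutrophil markers moved with calprotectin, and the sums of other cell types went with it, against it or neither way. The summed level of 14 neutrophil genes was 7.75, 8.13, 11.4 and 16.04 in the KO livers, against 3.32, 2.47, 2.50, 2.52 and 10.6 in the WT livers. WT replicate 5, the WT liver with high S100a8 and S100a9, was also the WT liver with the high marker sum. Within genotypes the marker sum correlated with S100a8 at r = 0.989 and with S100a9 at 0.952 over 9 libraries, and at 0.957 and 0.856 over 8 libraries without WT replicate 5. The ductal marker sum correlated with them at 0.875 and 0.864 and the endothelial sum at -0.776 and -0.673 over 9 libraries. For the monocyte and macrophage sum the values were -0.061 and 0.109, and for the lymphocyte sum -0.073 and 0.138. The stellate sum gave -0.622 and -0.55, and the hepatocyte sum -0.588 and -0.531. Only the neutrophil sum was correlated again without WT replicate 5, so these values do not rank the neutrophil sum against the others. Of the 14 genes, 2 passed the filter and 1 of these, Csf3r, was called higher, with a WT mean under 1. The secreted resistin-like protein Retnlg had 3.83 ± 1.47 in KO and 1.59 ± 1.96 in WT livers (SD, n = 4 and 5), without a call in limma (adjusted p = 0.0729, Benjamini-Hochberg). Ly6g, the surface marker by which neutrophils are sorted, was listed at 0 in 7 libraries and had 0.340 in KO replicate 4 and 0.913 in WT replicate 4, and Stfa2 was listed at 0 in all 9 libraries. The part of neutrophils in the S100a8 and S100a9 values was not tested.

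**Figure D2:**
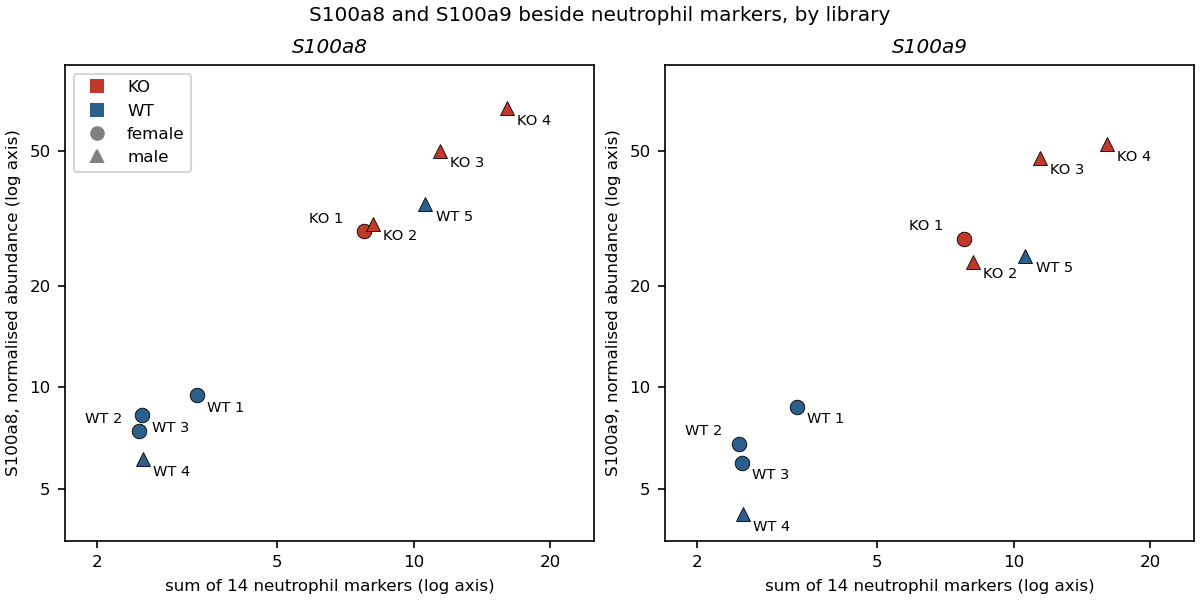
S100a8 (left panel) and S100a9 (right panel) in each library against the summed level of 14 neutrophil markers, both axes logarithmic; red points are KO, blue points WT, circles females and triangles males. WT replicate 5, at a marker sum of 10.6, lies among the 4 KO livers, and the other 4 WT livers lie at sums of 3.32 or less.

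The other marker lists are set beside the 21.4% of all transcripts called higher and the 14.5% called lower. Like the other gene lists here, they were drawn up with earlier results of these data known. All 12 monocyte and macrophage genes tested were called higher, with sums of 387 to 425 in KO and 185 to 228 in WT livers. Of the stellate cell and fibroblast genes, 10 of 12 were called higher, with sums of 347.5 to 399 in KO and 154 to 264 in WT livers. Of the cholangiocyte and ductal genes, 7 of 8 tested were called higher and the sums were 607 to 964 in KO and 38.8 to 63.6 in WT livers. Of these 7 genes, 5 had WT means under 1 and so passed the filter through the KO livers, which favours this count, as did 2 of the macrophage genes and 1 of the stellate genes. Most of the sum was Spp1, which several cell types use. The keratin Krt23 had 19.8 in KO and 1.77 in WT livers, the adhesion molecule Epcam 8.76 in KO and 0.885 in WT livers, and Krt19 2.13 in KO and 0.520 in WT livers. Krt7, below the filter, had 0.542 in KO and 0.214 in WT livers. Lymphocyte genes had 1 of 1 tested called higher, with sums of 6.09 to 9.35 in KO and 4.16 to 6.31 in WT livers. Endothelial genes had 2 called higher and 1 lower of 9 tested, with sums of 72.7 to 84.4 in KO and 65.8 to 83.7 in WT livers. Hepatocyte genes had 1 higher and 1 lower of 10, with sums of 52970 to 68270 in KO and 49810 to 112200 in WT livers. Most of the hepatocyte sum was Alb, with means of 45676 in KO and 62240 in WT livers. The part of these cells in the S100a4, S100a6 and S100a11 values was not tested. Within genotypes and over 9 libraries, S100a11 correlated at r = 0.764 with the macrophage sum and 0.499 with the ductal sum and 0.406 with the neutrophil sum. S100a6 correlated at 0.782 with the neutrophil sum, 0.735 with the ductal sum and -0.862 with the endothelial sum. Its values were -0.604 for the hepatocyte, -0.533 for the lymphocyte, -0.484 for the stellate and -0.343 for the macrophage sum. S100a4 correlated at -0.777 with the neutrophil sum, -0.773 with the ductal sum, 0.617 with the endothelial sum and 0.312 with the stellate sum. Without WT replicate 5 the correlations with the neutrophil sum were 0.512 for S100a6 and -0.501 for S100a4 over 8 libraries. With KO replicate 4 left out as well, they were 0.343 and -0.791 over 7 libraries. Correlations with the sums of the other cell types were not recomputed without these libraries.

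S100a1 is best known from heart and skeletal muscle, where it acts on calcium release and uptake. Its abundance was 63.4, 88.0, 67.8 and 83.3 in the KO livers, against 127, 157, 164, 157 and 139 in the WT livers. The highest KO liver stayed below the lowest WT liver. Means were 75.6 ± 11.9 in KO and 149 ± 15.2 in WT livers (SD, n = 4 and 5), a 1.97-fold lower level, and the log2 difference was -0.97 ± 0.12 (SE). S100a1 made up 12.99% of the family sum in KO and 31.1% in WT livers, and about 958 reads stood behind it. When every library was scaled to the same total, the log2 difference was -0.58.

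S100a13, which takes part in the release of Fgf1 and Il1a without a signal peptide, shares its promoter region with S100a1. It measured 29.7, 37.9, 31.1 and 35.6 in the KO livers, against 49.2, 57.3, 54.0, 42.6 and 32.1 in the WT livers. WT replicate 5 alone fell among the KO livers. Means were 33.6 ± 3.81 in KO and 47.0 ± 10.01 in WT livers (SD, n = 4 and 5), 1.40-fold lower, with a log2 difference of -0.45 ± 0.16 (SE). Without WT replicate 5 it was -0.58, with libraries scaled to equal totals it was -0.06, and in males alone it was -0.09. Within genotypes, S100a1 and S100a13 correlated at r = 0.524 over 9 libraries.

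S100a10, or p11, was the most abundant member in both genotypes. Unlike most of its relatives it has lost calcium binding, and it forms a tetramer with annexin A2 (Anxa2) at the membrane. It stood at 257, 219, 214 and 283 in the KO livers, against 167, 295, 203, 201 and 250.1 in the WT livers. The groups overlapped throughout. Means were 243 ± 32.8 in KO and 223 ± 49.8 in WT livers (SD, n = 4 and 5), a ratio of 1.09 and a log2 difference of 0.14 ± 0.16 (SE). With libraries scaled to equal totals the difference was 0.54. S100a10 gave 41.8% of the family sum in KO and 46.7% in WT livers.

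S100a16, a widely expressed member with weak calcium binding, measured 11.9, 14.8, 11.5 and 14.5 in the KO livers, against 10.03, 16.9, 17.5, 14.2 and 21.7 in the WT livers. The KO values lay inside the WT range. Means were 13.2 ± 1.68 in KO and 16.1 ± 4.31 in WT livers (SD, n = 4 and 5), and the log2 difference of -0.23 ± 0.19 (SE) was 0.14 with equal totals. S100a14, an epithelial member, had 0.135, 0.380, 0.252 and 0 in the KO livers and was listed at 0 in all 5 WT livers. It stayed under the filter, and no fold is given for it.

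Set in order, the KO levels ran S100a10, S100a11, S100a1, S100a8, S100a9, S100a13, S100a16, S100a6, S100a4 and S100a14. The WT levels ran S100a10, S100a1, S100a13, S100a16, S100a11, S100a8, S100a9, S100a6, S100a4 and S100a14. Neighbours whose ranges overlapped in KO livers were S100a1 with S100a8, S100a8 with S100a9, S100a9 with S100a13, and S100a16 with S100a6. In WT livers they were S100a16 with S100a11, S100a11 with S100a8, S100a8 with S100a9, and S100a9 with S100a6. S100a10 stood apart from the next member in both genotypes. The 10 members summed to 582 ± 68.9 in KO and 478 ± 63.9 in WT livers (SD, n = 4 and 5), with overlapping ranges of 537 to 684.5 in KO and 394.5 to 557 in WT livers.

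**Figure D3:**
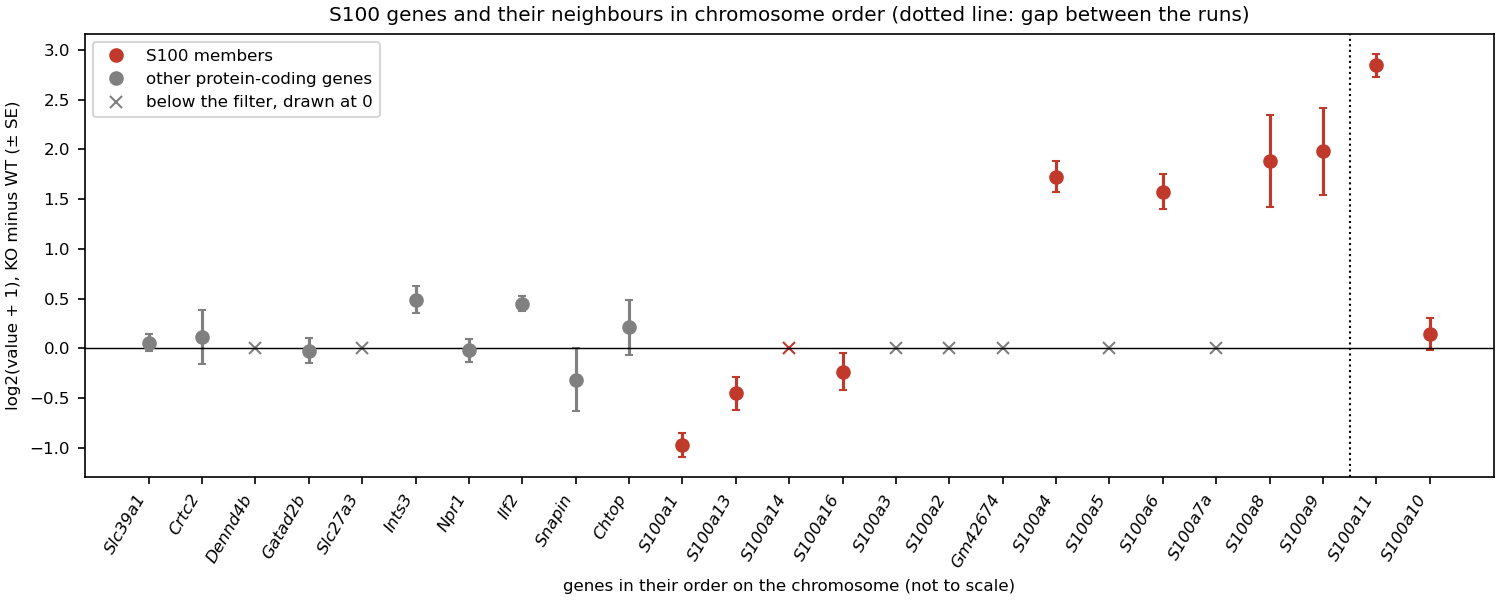
Difference of log2(value + 1), KO minus WT, with its SE, for the S100 genes (red) and the protein-coding genes before and among them (grey) in chromosome order; crosses mark genes below the filter, drawn at 0 and not measured as 0. S100a1, S100a13 and S100a16 lie at -0.97, -0.45 and -0.23 (0.14 for S100a16 with equal totals), S100a4, S100a6, S100a8 and S100a9 at the far end of the first run lie between 1.58 and 1.98, and S100a11 and S100a10 beyond the dotted line lie at 2.85 and 0.14.

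Position was not used to choose the family. In the first run the members at one end (S100a1, S100a13 and S100a16) had log2 differences of -0.97, -0.45 and -0.23, of which that of S100a16 was 0.14 with equal totals. Those at the other end (S100a4, S100a6, S100a8 and S100a9) had 1.72, 1.58, 1.88 and 1.98. In the second run the adjacent genes S100a11 and S100a10 had 2.85 and 0.14. Of the 45 other protein-coding genes among and within 10 genes of the runs, 44 were in the table and 8 passed the filter, all of them before the first run. Of these 8, 2 were called higher and 0 lower, beside 21.4% and 14.5% of all transcripts, and the remaining 6 were not called. Nothing is read from so small a count. Ilf2, a subunit of a double-stranded RNA-binding complex, had 13.2 ± 0.956 in KO and 9.39 ± 0.677 in WT livers (SD, n = 4 and 5, limma adjusted p = 0.00179). Ints3, an Integrator subunit, had 4.34 ± 0.764 in KO and 2.81 ± 0.552 in WT livers (SD, n = 4 and 5, limma adjusted p = 0.019). None of the 5 other coding genes lying among the first 8 members passed the filter.

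Letters that pair with the seed of miR-122 were sought in the annotated 3′ UTRs, as the core CACTCC that every longer seed match contains, on the transcript strand. Of the 10 members, S100a13 alone held a match, followed by an A and shown with its surroundings on chromosome 3 and the match in capitals, at base 42 of a UTR of 85 bases.
S100a13 site: agccaggcagCACTCCAcccctgccc
The other 9 members held no such letters in UTRs of 68 to 622 bases. Of 17820 listed transcripts with a UTR of at least 50 bases, 24.3% held a match, at a median length of 791 bases. S100a13, the member with the match, had 33.6 ± 3.81 in KO and 47.0 ± 10.01 in WT livers (SD, n = 4 and 5). The 5 members called higher had no match, in UTRs of 68 to 141 bases, against the median of 791. UTRs this short leave little room for a match, so nothing is read from its absence.

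Sex was a contrast that the choice of the family had not used, so the members were tested on it, with genotype in the model. None of the 9 members was called between males and females in limma (Benjamini-Hochberg over 10950 transcripts), beside 0.457% of all transcripts, or 50, and 1036 at an unadjusted p under 0.05. S100a6 was the only member at an unadjusted p under 0.05. It averaged 11.9 in the 3 KO males and 9.07 in the KO female, and 3.89 in the 2 WT males and 2.63 in the 3 WT females. The log2 difference, male minus female, was 0.40 ± 0.14 (SE), with an unadjusted limma p of 0.0183 and an adjusted p of 0.382. S100a11, at -0.02 ± 0.13 (SE, limma adjusted p = 0.981), and S100a10, at -0.01 ± 0.18 (SE, limma adjusted p = 0.995), had the smallest differences.

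Of the other S100-family and related genes, 15 were listed, 14 were in the table and 8 of these were listed at 0 in every library. Among the 2 that were tested, S100g (calbindin-D9k, the calcium carrier of gut epithelium) was called higher, with 4.09, 1.39, 2.80 and 2.37 in the KO livers, against 0.336, 0.505, 0.373, 0 and 0.894 in the WT livers. It averaged 2.66 ± 1.12 in KO and 0.421 ± 0.323 in WT livers (SD, n = 4 and 5), a ratio of 6.32 (limma adjusted p = 0.00202, 0.0581 in males alone). Its WT mean is under 1, so it passed the filter only through the KO livers where it is high. S100pbp, which binds S100P in human cells, had 2.49 ± 0.791 in KO and 3.10 ± 0.539 in WT livers (limma adjusted p = 0.259).

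Among receptors of released S100 proteins and their adaptors, 2 of 6 tested were called higher and 0 lower, or 33.3% beside 35.9% of all transcripts, and the median log2 difference was 0.11. Alcam, a cell adhesion molecule reported to bind S100B, rose to 22.2 ± 2.44 in KO livers, against 9.74 ± 1.51 in WT livers (SD, n = 4 and 5), 2.28-fold (limma adjusted p = 0.000143). Bsg (basigin), a receptor for S100a9, rose to 395 ± 25.9 in KO livers, against 290 ± 10.8 in WT livers, 1.36-fold (limma adjusted p = 0.00142). The KO and WT values of both genes did not overlap. Ager (RAGE), the receptor most often named for the family, was at 0.350 or less in every library, and Tlr4 averaged 1.00 ± 0.0823 in KO and 0.803 ± 0.217 in WT livers, both under the filter. The co-receptor of Tlr4, Ly96, had 9.07 in KO and 9.29 in WT livers, and the adaptor Myd88 had 6.75 in KO and 7.47 in WT livers. Nptn (neuroplastin, a relative of basigin) had 32.7 in KO and 27.4 in WT livers, and Cd36 had 5.48 in KO and 6.88 in WT livers. None of these 4 was called, at limma adjusted p of 0.131 to 0.844.

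Binding partners of the family held 9 called higher and 2 lower of 19 tested, or 57.9% beside 35.9% of all transcripts. Their median log2 difference was 0.30. The list was drawn up with earlier results of these data known, so nothing is read from this share. Anxa2, the partner of S100a10, had 75.3 ± 8.67 in KO and 11.6 ± 1.29 in WT livers (SD, n = 4 and 5), 6.48-fold higher (limma adjusted p = 4.37e-07). S100a10 itself had a ratio of 1.09, and the ratio of S100a10 to Anxa2 was 3.25 ± 0.485 in KO and 19.5 ± 5.13 in WT livers, with ranges of 2.86 to 3.93 in KO and 13.2 to 25.5 in WT livers. The tissue plasminogen activator Plat, which the S100a10 and annexin A2 tetramer holds at the cell surface with plasminogen, had 3.79 ± 0.940 in KO and 0.287 ± 0.0927 in WT livers, a ratio of 13.2 (limma adjusted p = 1.42e-05). Plat passed the filter only through the KO livers where it is high. Plasminogen (Plg), made by hepatocytes, had 745 ± 36.9 in KO and 1059.7 ± 62.2 in WT livers, 1.42-fold lower (limma adjusted p = 0.00111). The call of Plg was lost with equal totals (limma adjusted p = 0.503) and in males alone (limma adjusted p = 0.0635).

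Among the other annexins, Anxa5 had 171 ± 39.6 in KO and 35.0 ± 2.71 in WT livers (SD, n = 4 and 5), 4.89-fold higher (limma adjusted p = 7.95e-06). Anxa1, a partner of S100a11, was 1.52-fold higher (limma adjusted p = 0.0035) and Anxa11, a partner of S100a6, 1.35-fold higher (limma adjusted p = 0.00784), and neither was called in males alone. Anxa6 was not called (limma adjusted p = 0.0507). Myh9, the myosin chain bound by S100a4, had 24.1 ± 3.19 in KO and 10.6 ± 1.68 in WT livers, 2.28-fold higher (limma adjusted p = 0.000166), and the actin capping subunit Capzb was 1.49-fold higher (limma adjusted p = 0.000506). Cacybp, the partner of S100a6, had 24.96 ± 4.95 in KO and 29.1 ± 3.87 in WT livers and was not called (limma adjusted p = 0.229). The same held for the scaffold Ahnak, which binds the S100a10 tetramer, at 4.27 in KO and 4.41 in WT livers.

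Fgf1, whose release S100a13 serves, fell to 10.6 ± 3.19 in KO livers, against 22.02 ± 3.64 in WT livers (SD, n = 4 and 5), 2.08-fold lower (limma adjusted p = 0.00255). Its other cargo Il1a had 3.11 in KO and 3.84 in WT livers and was not called (limma adjusted p = 0.0937). The p53 gene Trp53, whose protein S100a4 binds, had 8.89 ± 0.756 in KO and 4.52 ± 3.00 in WT livers (limma adjusted p = 0.0434). WT replicates 2 and 3, at 8.20 and 7.38, came up to the KO values, and the call was lost when any 1 of the KO libraries was left out (limma adjusted p of 0.0686 to 0.0943). Mdm2, the ligase of p53, was 1.57-fold higher (limma adjusted p = 0.0138, 0.0655 in males alone).

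**Figure D4:**
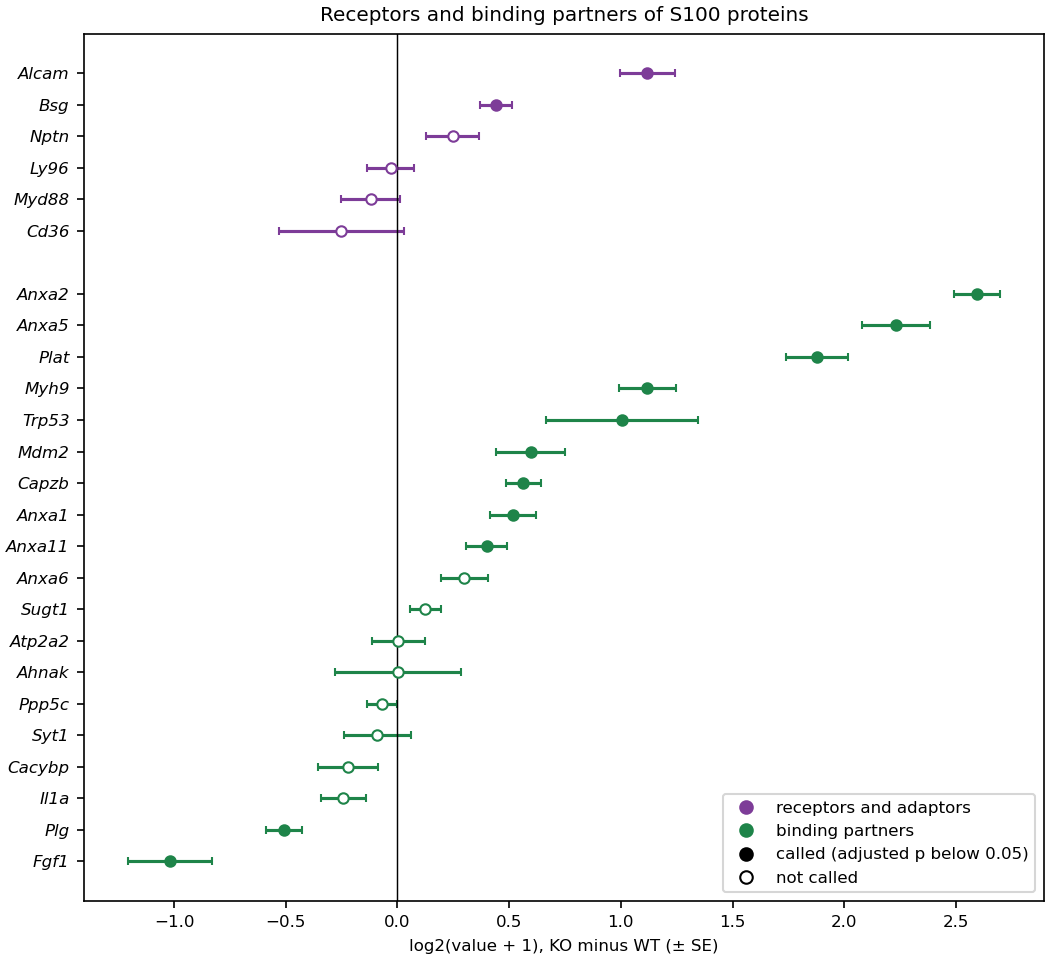
Difference of log2(value + 1), KO minus WT, with its SE, for the tested receptors and adaptors (purple, top) and binding partners (green, below) of S100 proteins; filled points were called in limma and open points were not. Anxa2, Anxa5 and Plat lie furthest to the right, and Plg and Fgf1 are the 2 filled points left of 0. Of the receptors and adaptors, Alcam and Bsg were called, at 1.12 and 0.44, and the others lie between -0.25 and 0.25.

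Other EF-hand proteins held 19 called higher and 2 lower of 35 tested, beside 21.4% and 14.5% of all transcripts. Their median log2 difference was 0.41. This list too was drawn up with earlier results of these data known, so nothing is read from these counts. Cib3, of the calcium and integrin-binding family, had 79.3, 129, 116 and 147 in the KO livers, against 2.04, 1.26, 4.28, 7.87 and 3.22 in the WT livers. No WT liver came near the KO livers, and the ratio of the means was 31.6 (limma adjusted p = 1.5e-05). Calm3, a calmodulin gene, had 51.1 ± 2.26 in KO and 19.0 ± 1.10 in WT livers (SD, n = 4 and 5), 2.69-fold higher (limma adjusted p = 1.26e-06). Efhd2 was 2.55-fold higher (limma adjusted p = 1.08e-05) and the myosin light chain Myl12a 2.06-fold higher (limma adjusted p = 2.07e-05). The calcineurin-like protein Chp1 had 104 ± 6.01 in KO and 159 ± 13.6 in WT livers, 1.53-fold lower (limma adjusted p = 0.000497, 0.223 with equal totals), and Cib2 was 1.76-fold lower (limma adjusted p = 0.0144, 0.147 with equal totals).

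Likeness was measured as Pearson's r of log2(value + 1) after each genotype's mean was removed, over 9 libraries and all tested transcripts. The most alike to S100a8 were S100a9 (0.975), Rfc2 (0.966) and Retnlg (0.946), and to S100a9 they were Rfc2 (0.996), S100a8 and Lars (0.953). S100a1 was close to Sar1b (0.967) and Rps15 (0.954), and S100a13 to Agap3 (0.990) and Slc37a4 (0.988). S100a11 was closest to Tshz1 (0.963), Cyp20a1 (0.935) and Fubp1 (0.934), and S100a10 to Lmbr1l (0.948), Bad (0.939) and Tpi1 (0.930). S100a4 was closest to 1600002H07Rik (0.969), Nt5dc2 (0.965) and Get4 (0.960), S100a6 to Serpina4-ps1 (0.949), Ubqln2 (0.945) and Gtpbp4-ps1 (0.945), and S100a16 to Rbm33 (0.960), Eif2b3 (0.960) and Trabd (0.950). With 10950 transcripts to choose from and 9 libraries, such values describe these libraries and no more. Within the family and over all 9 libraries, S100a4 went against S100a8 (r = -0.808) and S100a6 (r = -0.801). WT replicate 5 had the lowest S100a4 value (0.708) and the highest WT values of S100a8 (34.8) and S100a6 (4.58). These 2 correlations were not recomputed without it.

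**Figure D5:**
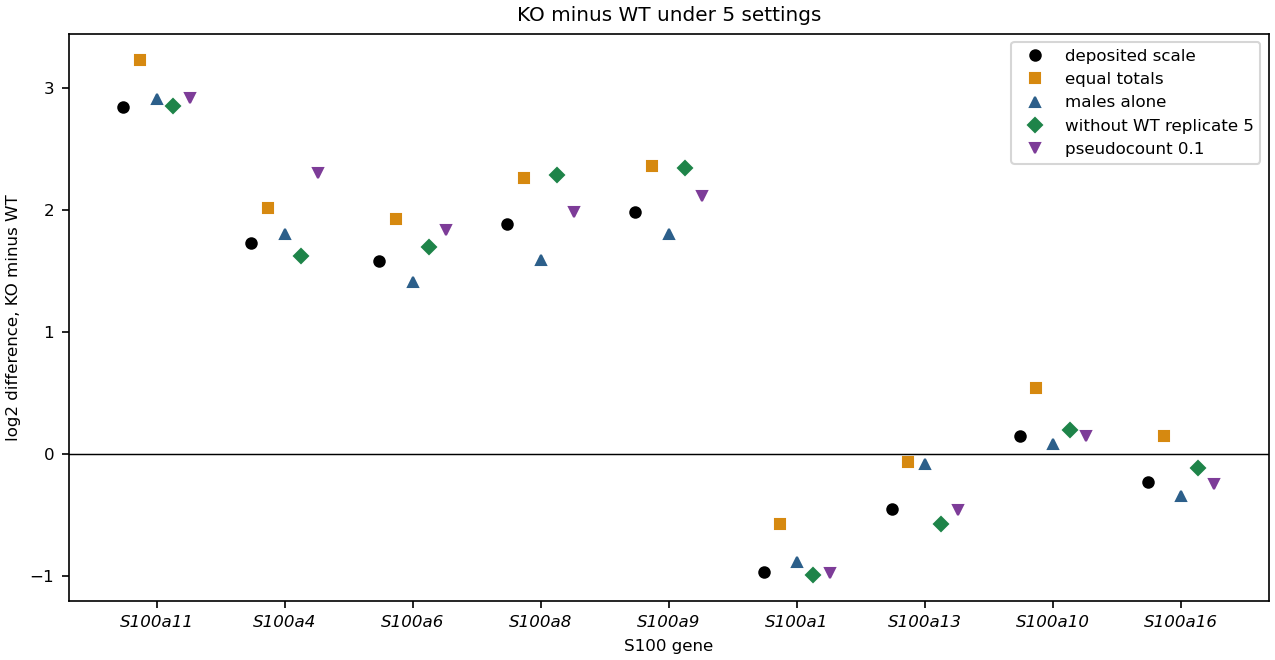
Log2 difference, KO minus WT, of the 9 tested S100 genes on the deposited scale and under 4 other settings: equal library totals, males alone, without WT replicate 5, and a pseudocount of 0.1. The 5 genes on the left stay well above 0 under all 5 settings, S100a1 stays below 0, and S100a16 lies at -0.23 on the deposited scale and at 0.14 with equal totals.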

How the data were processed

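Liver polyA RNA of 9 mice was sequenced and deposited as 1 table with 1 transcript per gene. Per the submitters' processing notes, the authors used kallisto and sleuth with mm10; the sources used here give neither versions nor how the transcript was picked. The deposited per-library values are treated as a normalised signal, per transcript length (Spearman rho of reads per unit against length, 0.974 over 13431 transcripts). The deposited mean observation is on a natural log scale and gave the approximate reads. Low values came out as whole reads (within 0.1) for only 54.3% to 75.7%, so no count test was run.

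The members and gene lists were chosen with earlier results of these data known. Transcripts with a mean of at least 1 were fitted on log2(value + 1) in limma 3.58.1 (R 4.3.3), with a trend in the prior variance, genotype alone or genotype and sex, and Benjamini-Hochberg adjustment at 0.05. The step was tested on simulated data. Replicates are separate animals, and litters are not labelled. Text names all 10 members, for each list up to 4 genes called higher and 4 called lower by adjusted p, described receptors and partners, and the 3 most alike transcripts; some genes the rule would name are not reported here. Motifs came from RefSeq promoters (GRCm38.p6) and 3′ UTRs from GENCODE M21. Alternatives were other thresholds, filters, pseudocounts, equal totals, males alone, a sex term, a replicate block and leaving out each library. Coordinates are 1-based.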

Additional observations from a re-analysis of the deposited data

Results flagged for a closer look

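S100a8 in the WT livers was flagged because 1 library stood far from the other 4. WT replicate 5 had 34.8, against 6.11 to 9.46 in the rest, and the gap to its nearest neighbour was 0.883 of the whole range, above the critical value of 0.71 for 5 libraries. S100a9 was flagged for the same library, at 24.5, against 4.1995 to 8.76 in the rest, with a gap of 0.776 of the range. These were the 2 flags among 19 groups examined, where chance gives about 1 in 20, and both rest on the same animal.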

How the results depend on the processing

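S100a11, S100a4, S100a6, S100a8, S100a9 and S100a1 kept their direction under every alternative run, on values that had chosen the family. Members called higher numbered 5, and 3 in males alone (without S100a8 and S100a9), 4 at an adjusted p of 0.01 (without S100a8), 4 with a mean of at least 5 (S100a4 not tested) and 6 with equal totals (with S100a10); members called lower numbered 1, and 1 to 2 when each library was left out in turn (2 without WT replicate 5, S100a13 being added). Transcripts called between genotypes numbered 3934, against 2362 at an adjusted p of 0.01, 2589 with a mean of at least 5 and 2336 in males alone; leaving out each library gave 3114 to 4054. With equal totals the median log2 difference of all transcripts was 0.37 (0.03 as deposited) and 94.4% of 5331 calls were higher (59.6% as deposited); without a filter this share was 69.4%, and with a mean of at least 5 it was 47.5%. Between sexes 50 transcripts were called, against 21 at an adjusted p of 0.01, 28 without a filter, 85 with equal totals, and 27 to 142 when each library was left out; the 27 was without WT replicate 5 and the 142 without KO replicate 1, and no member was called under any alternative. Other S100 genes called numbered 1, against 2 without a filter, 0 with a mean of at least 5, where none of them passed, and 0 in males alone. Binding partners called numbered 11, against 7 in males alone. Deviations of same-numbered KO and WT libraries correlated at r of 0.229, 0.082, -0.184 and 0.113. Without a value for true pairs, this cannot decide whether the numbers pair the animals. With a replicate block, 3557 transcripts were called between genotypes and 0 between sexes, and 2 members were called lower. The cause of these shifts was not tested. Males alone also means fewer libraries, and the higher filter fewer genes. Low reads limit S100a4, and S100a14 is too low to compare.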
